A study of Mus musculus with 6 samples.

Results

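The genes described here are 8 transcription factors of the myeloid lineage: Spi1, which encodes PU.1, Irf8, Runx1, and the C/EBP genes Cebpa, Cebpb, Cebpd, Cebpe and Cebpg. They were picked by name, and all 8 were found among the 38926 genes of the deposited expression table. The samples were RNA of mouse LSK cells, a bone marrow fraction sorted for Sca-1 and Kit and against lineage antigens, in which blood stem cells and early progenitors reside. The cells came from femur and tibia of C57BL/6 mice aged 8 to 12 weeks, which received haloperidol, an antipsychotic that blocks dopamine receptors, or its solvent DMSO on 3 consecutive days. All animals were called wild type, no allele or transgene was named, and exposure to the drug or to DMSO went on while the cells were sorted. Each group had 3 libraries, and the comparison asked which lineage factors rose and which fell with the drug.

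PU.1 is an ETS family factor that opens myeloid and lymphoid enhancers, and its dose is known to bias progenitors between lineages. It binds DNA together with IRF8, which favours monocytes and dendritic cells over granulocytes, while RUNX1, with its partner CBFβ, is needed for stem cells to arise and activates Spi1 itself. The C/EBP proteins share a basic leucine zipper and dimerise with each other. C/EBPα starts granulocyte and monocyte commitment, C/EBPβ serves granulopoiesis under stress, C/EBPδ is an acute response factor, C/EBPε drives late neutrophil maturation, and C/EBPγ lacks a strong activation domain and works mostly as a partner in heterodimers.

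The libraries held 8523556 to 8969024 reads in genes, as read from the steps of the FPKM values (fragments scaled to gene length and a library size factor). The genes of the gate were present in every library: Kit lay between 69.8 and 96.3 FPKM, Ly6a, which encodes Sca-1, between 125 and 147 FPKM, and Ptprc, the leukocyte antigen CD45, between 39.6 and 45.5 FPKM. None of these 3 passed the test (adjusted p at least 0.396). The other progenitor markers on the same list did pass: Cd34 was lower with haloperidol (log2 fold change -0.22, adjusted p = 0.0153) and Flt3 higher (0.16, adjusted p = 0.0484). The summed level of the 5 markers was 988 to 1043 FPKM in DMSO and 915 to 963 FPKM in haloperidol libraries, without overlap. Most of this sum was Cd34, at 619 to 665 FPKM in DMSO and 537 to 576 FPKM in haloperidol libraries. Markers of mature cells were mixed. Ms4a1 and Pax5 of B cells, Cd3e and Cd3d of T cells, Emr1, Ccr2 and Fcgr1 of macrophages and monocytes, and Cdh5 of endothelium were below a mean of 1 FPKM over the 6 libraries, and Cd8a was at 0 in all of them. Other markers of the same cell types were well above that level in every library, among them Nkg7 of T and NK cells (272 to 331 FPKM), Cd14 (73.1 to 102 FPKM) and Cd68 (15.3 to 48.2 FPKM) of monocytes and macrophages, Cd79b of B cells (21.4 to 33.4 FPKM), S100a8 of neutrophils (57.2 to 111 FPKM) and Pecam1 of endothelium (10.6 to 12.0 FPKM). Haemoglobin and other erythroid transcripts were abundant in both groups, at a summed 2155 to 2869 FPKM in DMSO and 2620 to 3438 FPKM in haloperidol libraries, and 0 of 5 passed. The labels do not say whether replicates are separate mice, or whether groups were handled on separate days. All p-values rest on the scatter among these libraries alone, possibly only technical, and the treatment and any batch parallel to it cannot be told apart.

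Of the 8 genes, 1 rose, 2 fell and 4 did not pass the test, and Cebpe was too low to be tested. Cebpd rose about 2-fold, Irf8 fell to about 53% of its DMSO mean, and Spi1 fell to about 71%. Runx1 and Cebpg had lower means with haloperidol, but neither passed. Cebpa and Cebpb, the family members with the lowest and the highest tested level, had nearly equal means in both groups. Among all 11436 genes tested, 24.5% passed the threshold, 11.5% as higher and 13.0% as lower, against which the 3 of 7 tested members are to be read. In bulk RNA, fewer cells of one type and less RNA per cell cannot be told apart.

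**Figure D1:**
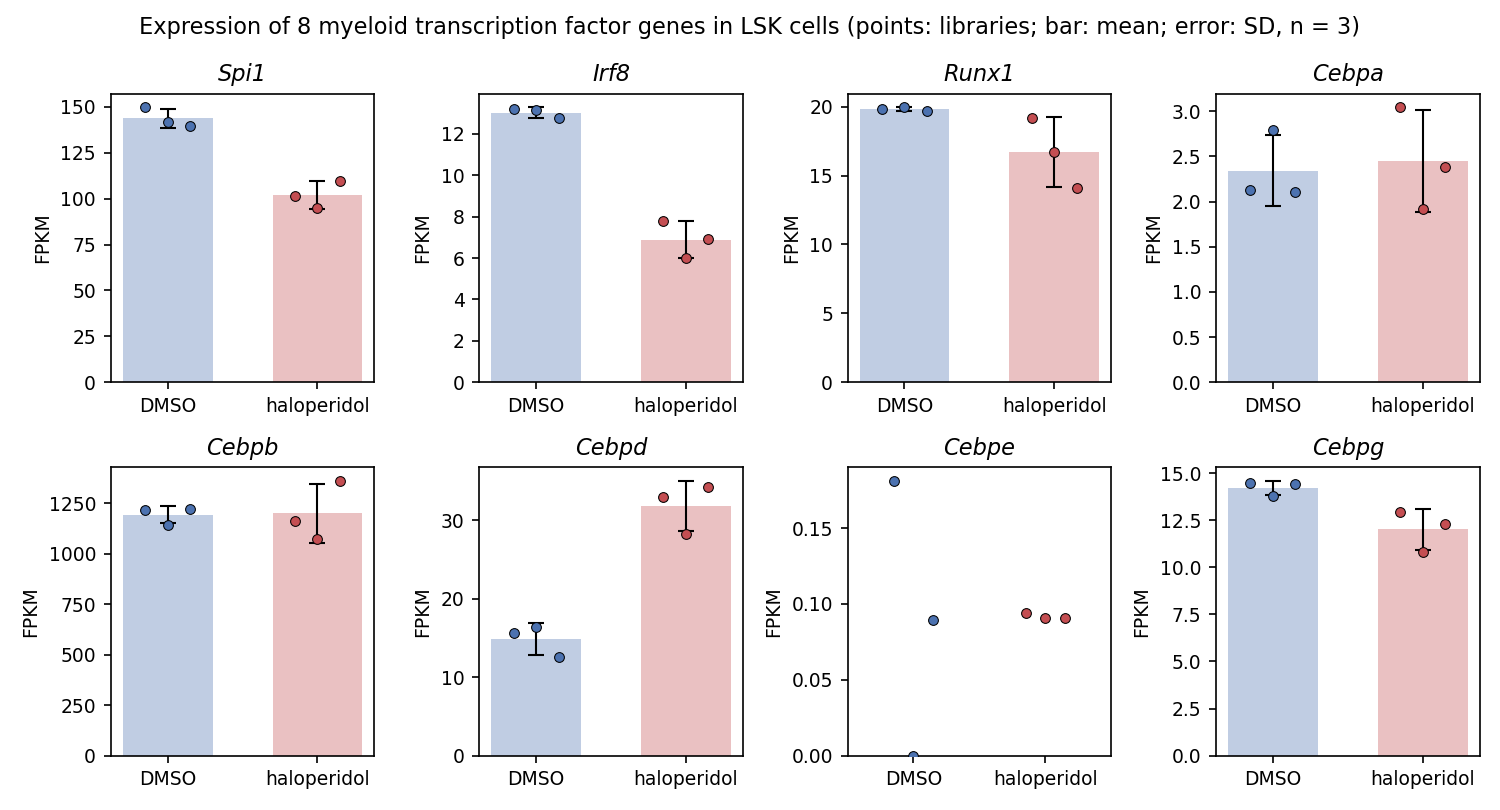
FPKM (vertical axes, linear from 0) of the 8 genes in the DMSO (blue) and haloperidol (red) libraries; points are libraries, bars are means and error bars are SD of 3 libraries, with points alone for Cebpe, which had at most 2 reads. All 3 haloperidol libraries lie below all 3 DMSO libraries for Spi1, Irf8, Runx1 and Cebpg, and above them for Cebpd.

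Irf8 had the largest fall. It was at 13.2, 13.1 and 12.7 FPKM in DMSO replicates 1, 2 and 3, and at 7.79, 5.98 and 6.91 FPKM in haloperidol replicates 1, 2 and 3. The groups did not overlap, and the means were 13.0 ± 0.255 FPKM in DMSO and 6.89 ± 0.907 FPKM in haloperidol (SD, n = 3 each). These levels rest on 805 to 832 reads per DMSO library and 375 to 473 reads per haloperidol library. The log2 fold change, on the log2(FPKM + 1) scale, was -0.84 (SE 0.09, 95% interval -1.04 to -0.63, limma adjusted p = 5.54e-04). Irf8 lies on the plus strand of chromosome 8, from 120736358 to 120756694 (GRCm38, the assembly of mm10), and has up to 9 exons in a coding transcript.

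The sequence before its start is shown because Irf8 fell most and because its 250 bases hold a motif that few promoters have. The letters TTCNNNGAA, the form of element bound by STAT factors, were found in 7.02% of 32851 mouse promoter windows of that length and at 2 places in this one. The RefSeq sequence upstream of the first Irf8 start (GRCm38.p6, chr8:120736108-120736357, plus strand) is written 5′ to 3′, with both matches in capitals.
Irf8: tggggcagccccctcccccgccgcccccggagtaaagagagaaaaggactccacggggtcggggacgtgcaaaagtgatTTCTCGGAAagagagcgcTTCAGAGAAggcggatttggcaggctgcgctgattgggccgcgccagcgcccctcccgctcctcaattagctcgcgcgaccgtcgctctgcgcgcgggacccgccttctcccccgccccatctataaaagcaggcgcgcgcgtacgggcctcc
The first match spans bases 171 to 163 before the start and the second bases 153 to 145. The window before the other listed Irf8 start held no match to any motif searched. A match in letters says nothing of binding in these cells, which was not measured.

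Spi1 fell as well. Its level was 150, 142 and 140 FPKM in DMSO replicates 1, 2 and 3, and 102, 94.8 and 110 FPKM in haloperidol replicates 1, 2 and 3. The groups were apart by more than their spread, with means of 144 ± 5.41 and 102 ± 7.48 FPKM (SD, n = 3 each). With 2271 to 3600 reads per library Spi1 was, after Cebpb, the most deeply covered member. Its log2 fold change was -0.49 (SE 0.06, 95% interval -0.63 to -0.35, limma adjusted p = 0.00110). Its rank by mean FPKM went from 475 of 11436 in DMSO to 744 in haloperidol. Spi1 lies on the plus strand of chromosome 2, from 91082390 to 91115756.

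Runx1 was at 19.9, 19.9 and 19.7 FPKM in DMSO replicates 1, 2 and 3 and at 19.2, 16.7 and 14.1 FPKM in haloperidol replicates 1, 2 and 3. The SD was 0.122 FPKM among the DMSO libraries and 2.54 FPKM among the haloperidol libraries, and haloperidol replicate 1 lay close to the DMSO range. The log2 fold change of -0.25 (SE 0.10, 95% interval -0.47 to -0.02) did not pass (adjusted p = 0.102). Without haloperidol replicate 1 it was -0.35 and passed (adjusted p = 0.0298), and it also passed on recovered reads (adjusted p = 0.0272). In the other 16 of 18 alternatives it did not pass, and without haloperidol replicate 3 it was -0.14 (adjusted p = 0.228). Runx1 covers 224684 bases of the minus strand of chromosome 16, from 92601466 to 92826149, and has 2 promoter windows in the RefSeq table. Of these, the one further into the gene held 1 PU.1 core GAGGAA, on the minus strand of the gene, which 23.3% of all windows hold.

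**Figure D2:**
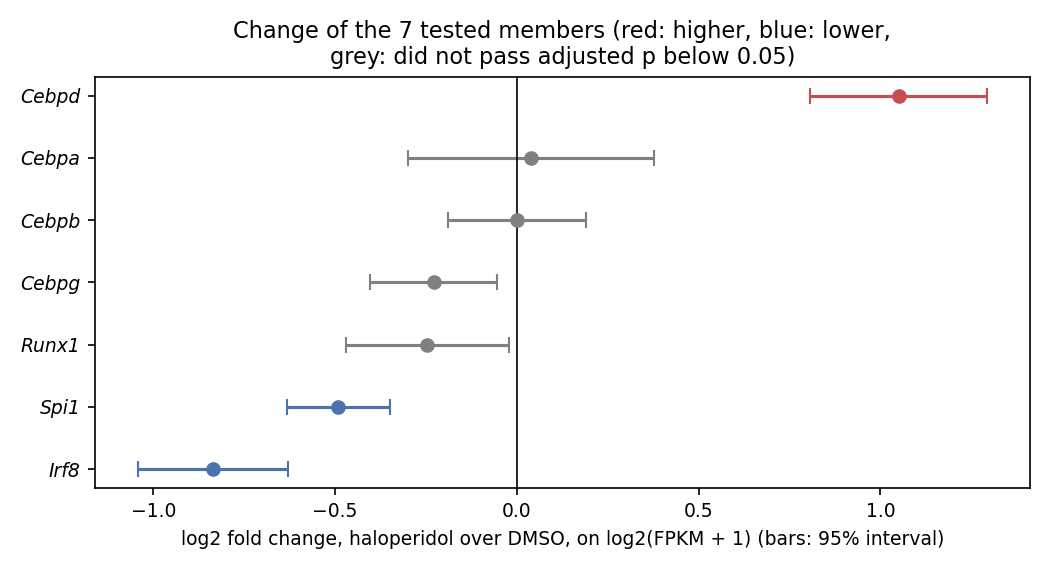
Log2 fold change of haloperidol over DMSO on the log2(FPKM + 1) scale (horizontal axis) for the 7 tested genes, with 95% intervals from limma, coloured by call. Cebpd lies right of 0 at 1.05, Irf8 and Spi1 left of 0 at -0.84 and -0.49, and the intervals of Cebpa and Cebpb include 0.

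In the C/EBP family Cebpd was the one member that passed. It was at 15.7, 16.4 and 12.6 FPKM in DMSO replicates 1, 2 and 3 and at 33.0, 28.2 and 34.2 FPKM in haloperidol replicates 1, 2 and 3. Every haloperidol library was above every DMSO library, and the means were 14.9 ± 2.02 and 31.8 ± 3.19 FPKM (SD, n = 3 each). The rise was a log2 fold change of 1.05 (SE 0.11, 95% interval 0.81 to 1.29, limma adjusted p = 4.35e-04), the 159th largest change in size of the 11436 genes. It rests on 134 to 168 reads per DMSO library and 296 to 360 per haloperidol library. Cebpd is a single-exon gene on the plus strand of chromosome 16 that starts at 15887286.

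Cebpb was the most abundant member by far. Its level was 1217, 1143 and 1222 FPKM in DMSO replicates 1, 2 and 3, and 1162, 1075 and 1361 FPKM in haloperidol replicates 1, 2 and 3. The groups overlapped, since the lowest and the highest of the 6 libraries were both haloperidol libraries. By mean FPKM it was 18th of the 11436 genes in either group. The log2 fold change was 0.00 (SE 0.08, limma adjusted p = 0.998), and its 95% interval, -0.19 to 0.19, leaves out a change as large as that of Spi1. With 14373 to 18239 reads per library, counting error was small beside the spread of 147 FPKM (SD) among the haloperidol libraries.

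The window before Cebpb is shown as that of the most abundant factor. It has 81.6% G and C, against a median of 52.4% over all windows. The complete cyclic AMP element TGACGTCA, present in 1.55% of windows, is absent from it. The core of that element, TGACG, was added after the first search and is present in 17.8% of windows. In the Cebpb window the core occurs 3 times in all, with both strands counted together. In the RefSeq sequence (GRCm38.p6, chr2:167688665-167688914, plus strand), written 5′ to 3′, these cores are in capitals.
Cebpb: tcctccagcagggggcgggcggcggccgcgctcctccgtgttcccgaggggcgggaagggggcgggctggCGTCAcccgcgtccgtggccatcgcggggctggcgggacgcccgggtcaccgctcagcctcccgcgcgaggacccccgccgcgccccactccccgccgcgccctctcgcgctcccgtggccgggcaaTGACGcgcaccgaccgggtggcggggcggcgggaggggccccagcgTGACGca
The windows of Cebpa and Cebpg held no match to any motif searched, the C/EBP motif TTGCNNAA (9.56% of windows), the RUNX motif TGTGGT (14.0%) and the IRF response element (2.98%) included.

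Cebpa was low in LSK cells. It was at 2.13, 2.80 and 2.105 FPKM in DMSO replicates 1, 2 and 3, and at 3.04, 1.92 and 2.39 FPKM in haloperidol replicates 1, 2 and 3. The groups overlapped, and the log2 fold change was 0.04 (SE 0.15, 95% interval -0.30 to 0.38, adjusted p = 0.873). Cebpa had 45 to 69 reads per library. Changes of the size seen for Irf8 and Spi1 lie outside that interval, though at such low levels the scale understates a change. Cebpe had 2, 0 and 1 reads in DMSO replicates 1, 2 and 3 and 1 read in each haloperidol library. A count of 0 allows up to 3 reads, or 0.279 FPKM in DMSO replicate 2, which covers counting error only, and Cebpe was not distinguishable from that limit in any library.

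Cebpg was at 14.5, 13.8 and 14.4 FPKM in DMSO replicates 1, 2 and 3 and at 12.9, 10.8 and 12.3 FPKM in haloperidol replicates 1, 2 and 3. The groups did not overlap, but the difference was small, and the log2 fold change of -0.23 (SE 0.08, 95% interval -0.40 to -0.06) did not pass (adjusted p = 0.0589). It did pass on recovered reads (adjusted p = 0.0301), with rescaling to a common sum (adjusted p = 0.0418) and among genes of at least 5 FPKM (adjusted p = 0.0460). In the other 15 of 18 alternatives it did not pass, and without haloperidol replicate 2 it was -0.16 (adjusted p = 0.165). The groups did not overlap for 5 of the 7 tested members, 4 lower and 1 higher, and for 43.1% of all genes tested, 22.1% lower and 21.0% higher. Cebpg and Cebpa are neighbours on chromosome 7, with 62.7 kb and 0 other coding genes between them.

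The summed FPKM of the 5 C/EBP genes was almost wholly that of Cebpb. Its share was 97.4% ± 0.235 in DMSO and 96.3% ± 0.291 in haloperidol (SD, n = 3 each). Cebpd went from 1.22% ± 0.196 to 2.56% ± 0.150 of the sum, and its share was between 1.01% and 1.39% in the DMSO and between 2.43% and 2.72% in the haloperidol libraries. Cebpg went from 1.16% ± 0.0103 to 0.969% ± 0.0974, and Cebpa was at 0.192% ± 0.0396 and 0.198% ± 0.0466. In DMSO Cebpd and Cebpg thus held like shares, and in haloperidol Cebpd held the larger one in all 3 libraries. Shares of FPKM rest on the gene models, whose recovered lengths were 1180 bases for Cebpd and 4935 for Cebpg. The GENCODE M21 annotation gives 3746 and 5621 bases, and shares at these lengths were not tested.

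By level per length, the order in DMSO was Cebpb, Spi1, Runx1, Cebpd, Cebpg, Irf8, Cebpa and Cebpe. The ranges of Cebpd (12.6 to 16.4 FPKM), Cebpg (13.8 to 14.5 FPKM) and Irf8 (12.7 to 13.2 FPKM) lay together, Cebpd overlapping both others, and the remaining neighbours were apart. In haloperidol Cebpd, from 28.2 to 34.2 FPKM, stood above Runx1, from 14.1 to 19.2 FPKM, and Irf8 stood below Cebpg, with no overlap between any neighbours. A level per length depends on the gene model. The model length recovered from the deposited values equals that of GENCODE M21 for Spi1 (2695 bases), Irf8 (7055) and Cebpb (1504). It is 1180 bases against 3746 for Cebpd, 7368 against 12025 for Runx1 and 4935 against 5621 for Cebpg. The place of these genes in this order rests on the model used. In a ratio of FPKM between groups the length cancels, save for the 1 added before the logarithm. Which reads are counted still depends on the model, and other models were not tested.

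**Figure D3:**
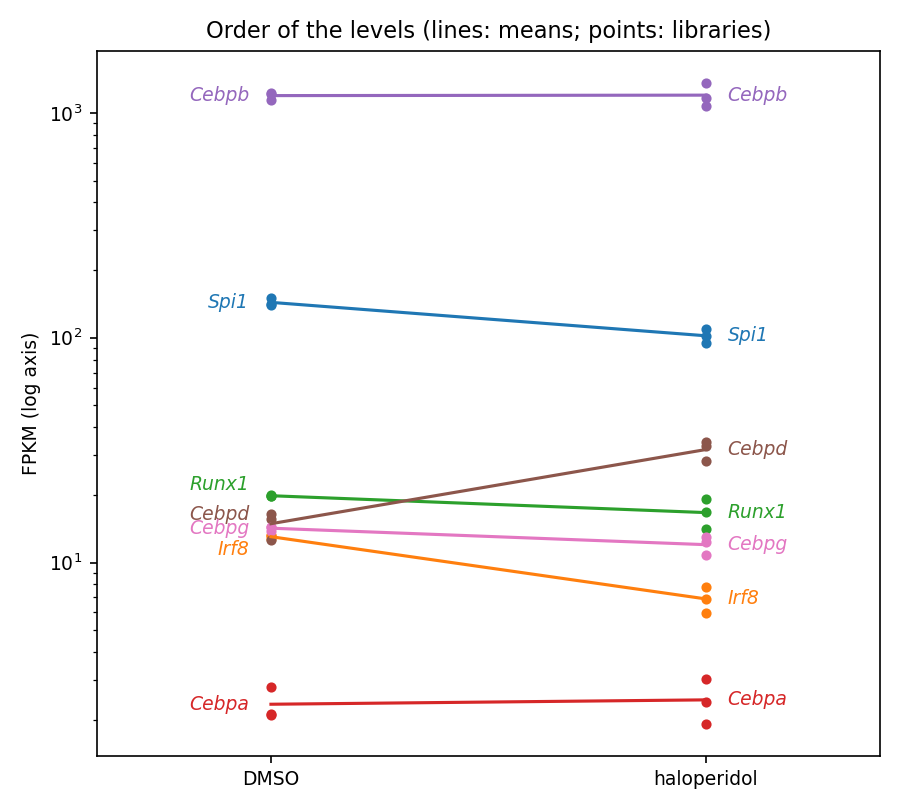
FPKM on a log axis for 7 of the 8 genes (Cebpe left out) in DMSO and haloperidol; lines join the group means and points are libraries. The line of Cebpd rises from 14.9 to 31.8 FPKM across that of Runx1, and Irf8 falls from 13.0 to 6.89 FPKM.

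Libraries were prepared without strand, so reads of overlapping genes on the other strand cannot be told apart. In GENCODE M21 Tmem189 overlaps Cebpb on the other strand, at a mean of 17.2 FPKM with DMSO and 19.6 FPKM with haloperidol, and Spidr overlaps the longer Cebpd model, at 16.98 and 15.5 FPKM. Their levels are given beside Cebpb and Cebpd for this reason, and their part in these counts was not tested.

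Ratios of factors within a library do not move with scaling between libraries, and 7 were compared, each by a two-sided exact permutation test over the 6 libraries that cannot go below p = 0.1. The log2 ratio of Irf8 to Cebpa went from 2.49 ± 0.223 in DMSO to 1.51 ± 0.142 in haloperidol (SD, n = 3 each, exact p = 0.1). In linear terms Irf8 stood at 5.61 times Cebpa in DMSO and 2.85 times in haloperidol. Irf8 to Spi1 went from -3.46 ± 0.0363 to -3.89 ± 0.164, and was lower in each of the 3 haloperidol libraries than in any DMSO library. Cebpa to Spi1 went from -5.95 ± 0.253 to -5.40 ± 0.30. Gfi1, a repressor that favours granulocytes over monocytes, had a log2 ratio to Irf8 of -0.93 ± 0.102 in DMSO and -0.37 ± 0.0924 in haloperidol. These 4 ratios did not overlap between groups, and each had the smallest p the design allows (0.175 after Benjamini-Hochberg adjustment over the 7). Each of them holds Irf8 or Spi1, so they are no separate evidence beside the falls of these genes.

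The other 3 ratios overlapped. Gata2, a factor of stem cells, megakaryocytes and mast cells that opposes PU.1, fell by about as much as Spi1, and their log2 ratio was -0.53 ± 0.0496 in DMSO and -0.48 ± 0.0462 in haloperidol (exact p = 0.3). Runx1 to Spi1 was at -2.86 ± 0.0510 and -2.62 ± 0.295 (exact p = 0.4), and Cebpb to Cebpa at 9.01 ± 0.286 and 8.95 ± 0.327 (exact p = 0.5).

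**Figure D4:**
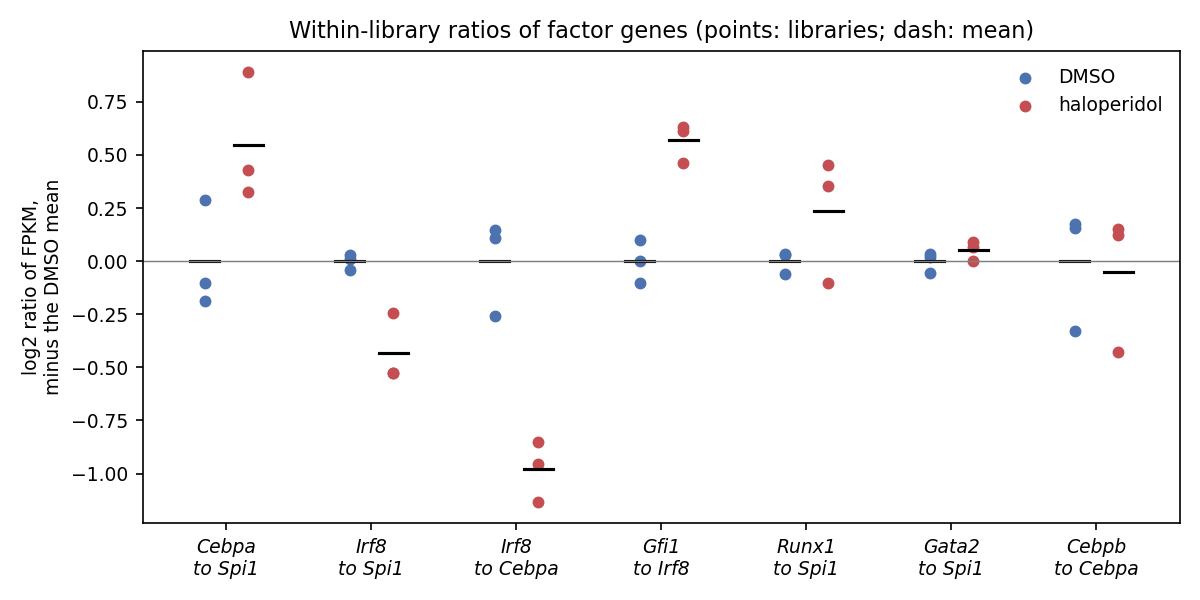
Log2 ratio of FPKM of gene pairs within each library, minus the DMSO mean of that pair (vertical axis); points are libraries, dashes are means of 3. Irf8 to Cebpa lies 0.98 lower and Gfi1 to Irf8 0.57 higher in haloperidol, while Cebpb to Cebpa overlaps.

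Partner and antagonist genes of these factors were read from lists drawn up from textbook knowledge, and each count of rises and falls stands against 11.5% and 13.0% of all genes tested. Of 8 tested relatives, partners and antagonists of PU.1, 6 fell and 1 rose, with a median log2 fold change of -0.44 against 0.00 for all genes tested. Gata2 fell from 99.4 ± 5.49 to 73.2 ± 5.48 FPKM, Jun, a coactivator of PU.1, from 255 ± 7.07 to 169 ± 23.1 FPKM, and Egr2, a factor of macrophage differentiation, from 5.37 ± 0.268 to 3.27 ± 0.720 FPKM (SD, n = 3 each), which no longer passed once low genes were tested too (adjusted p = 0.0526). The count of falls was 2 when low genes were tested too, 3 without DMSO replicate 2 and 3 without haloperidol replicate 2, and the rise, that of the EGR corepressor gene Nab2, ended in 8 of the 18 alternatives. The relatives Spib and Spic and the partner Irf4 were below the filter.

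Of 12 tested RUNX relatives and core-binding factor partners, 7 fell and 0 rose, and the median log2 fold change was -0.40. The relatives Runx2 (log2 fold change 0.12) and Runx3 (0.08) and the CBFβ gene Cbfb (-0.04) did not pass. Gata2, on the PU.1 list too, is counted among the falls. Cbfa2t3, a corepressor gene of the ETO family, fell from 18.6 ± 2.36 to 6.22 ± 0.542 FPKM (log2 fold change -1.44, SE 0.10). It was at 21.2, 18.0 and 16.6 FPKM in the DMSO and at 6.65, 5.61 and 6.39 FPKM in the haloperidol libraries, so that the groups were far apart, and the mean fell to 0.334 of that in DMSO. Lmo2, an adaptor of the stem cell factor complex, fell from 478 ± 10.4 to 323 ± 10.5 FPKM, and Myb, a factor of progenitor growth, from 138 ± 8.59 to 80.7 ± 7.37 FPKM. The adjusted p of these 3 genes was at most 3.57e-04.

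Of 7 other interferon regulatory factor genes tested, 3 fell and 0 rose, with a median of -0.28. Irf2, a repressor of interferon genes, fell from 33.4 ± 2.41 to 20.7 ± 1.68 FPKM, Irf1, an activator, from 112 ± 0.935 to 91.9 ± 4.47 FPKM, and Irf3, a sensor-driven activator, from 23.5 ± 1.68 to 17.8 ± 0.652 FPKM. Of 6 tested monocyte and dendritic cell factors, 3 fell and 1 rose (2 rose in 6 of the 18 alternatives), with a median of -0.14 that was 0.15 when only genes of at least 5 FPKM were tested. The gene that rose was Id2, an inhibitor of E proteins, from 10.4 ± 0.606 to 15.1 ± 1.98 FPKM. Zeb2, a repressor needed for monocytes and plasmacytoid dendritic cells, fell from 4.35 ± 0.350 to 2.24 ± 0.255 FPKM, the NF-κB subunit gene Relb from 13.0 ± 0.709 to 7.69 ± 1.31 FPKM, and Tcf4, the E protein of plasmacytoid dendritic cells, from 15.3 ± 1.02 to 11.1 ± 0.781 FPKM. Klf4, a monocyte factor downstream of IRF8, was at 26.8 ± 4.39 and 29.6 ± 2.69 FPKM (adjusted p = 0.372).

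Of 9 genes that partner or restrain C/EBP proteins, 3 fell and 1 rose, with a median of -0.04. Trib2, a pseudokinase that leads C/EBPα to degradation, fell from 1.74 ± 0.242 to 0.672 ± 0.248 FPKM, and Sox4, a stem cell factor repressed by C/EBPα, from 145 ± 5.59 to 102 ± 14.4 FPKM. E2f1, a cell cycle factor bound by C/EBPα, rose from 22.9 ± 0.907 to 27.9 ± 2.04 FPKM, but did not pass when DMSO replicate 1 or 2 or haloperidol replicate 2 or 3 was left out (adjusted p 0.0582 to 0.0720). Gfi1, which is on this list too, fell from 6.84 ± 0.606 to 5.34 ± 0.480 FPKM (adjusted p = 0.0447), and lost its call in 9 of 18 alternatives.

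Target genes did not follow one direction. Of 17 tested genes known as PU.1 targets, 5 rose and 3 fell (3 and 3 with rescaling to a common sum), with a median of 0.13. Csf2rb, the shared receptor chain of GM-CSF, IL-3 and IL-5, rose from 7.83 ± 0.909 to 17.4 ± 3.47 FPKM, and Csf2ra, the GM-CSF receptor α chain, from 13.3 ± 0.651 to 16.6 ± 0.198 FPKM. Ncf1, a subunit of the phagocyte oxidase, fell from 43.4 ± 1.07 to 24.7 ± 1.53 FPKM, while the lysosomal membrane gene Laptm5 was at 337 ± 6.75 and 341 ± 7.18 FPKM. The count of rises was 2 with no trend in the prior, 3 when low genes were tested too, 2 without DMSO replicate 1, DMSO replicate 2 or haloperidol replicate 3, and 3 without haloperidol replicate 1 or 2, and the count of falls was 1 without DMSO replicate 2.

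Of 19 tested C/EBP targets, 3 rose and 3 fell, shares near those of all genes (11.5% and 13.0%), with a median of 0.13. The medians of PU.1 and C/EBP targets were both the value of Cd14, which is on both lists and did not pass (adjusted p = 0.357). Csf3r, also on both lists, is counted among the rises of each. Without haloperidol replicate 3 the medians were 0.055 for PU.1 targets and 0.028 for C/EBP targets. The granule protease gene Ctsg rose from 78.7 ± 6.94 to 192 ± 37.9 FPKM and Prtn3 from 117 ± 6.57 to 198 ± 16.9 FPKM, while Lyz2, which encodes lysozyme of granulocytes and macrophages, fell from 391 ± 25.2 to 266 ± 18.4 FPKM. Mpo, the most abundant target and a granule gene as well, was at 420 ± 16.8 and 439 ± 74.9 FPKM (adjusted p = 0.755). Of 6 tested IRF8 targets, 1 fell and 0 rose, with a median of -0.03, and 2 fell when low genes were tested too. With 13.0% of all genes lower, this count is no result about the targets. The gene that fell was Il18, an interleukin of monocytes, at 23.6 ± 0.868 and 16.4 ± 1.16 FPKM. Cst3, the cystatin C gene of dendritic cells, was at 285 ± 2.87 and 282 ± 7.63 FPKM (adjusted p = 0.824). The IRF8 targets Il12b, Ciita, Batf3, Cybb and Cd180 were below the filter, and Il12b was at 0 in all libraries.

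**Figure D5:**
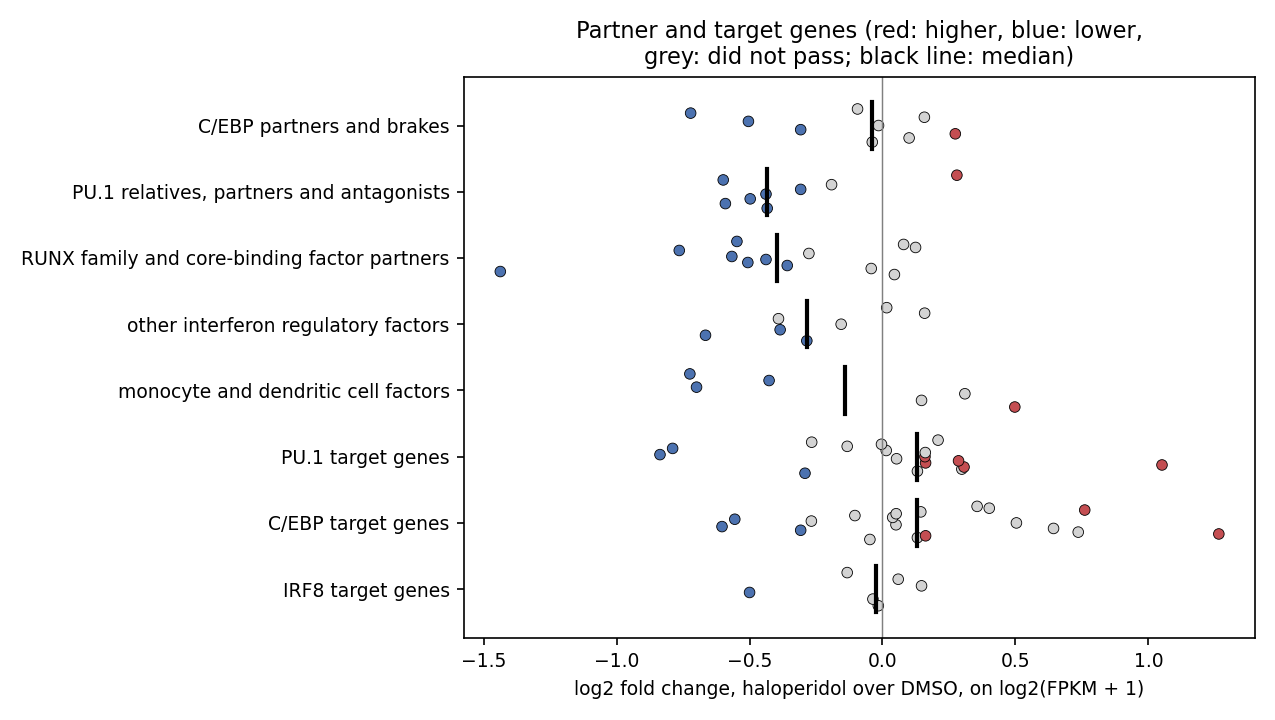
Log2 fold change of haloperidol over DMSO on the log2(FPKM + 1) scale (horizontal axis) for the tested genes of 8 lists, 1 point per gene, coloured by call, with the median of each list as a black line. The medians of PU.1 relatives, partners and antagonists and of RUNX relatives and partners lie at -0.44 and -0.40. Those of PU.1 and C/EBP targets both lie at 0.13, the value of Cd14, which is on both lists.

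Summed markers of some other cell types differed between the groups, and those of others did not. Counts of tested markers stand against 11.5% higher and 13.0% lower among all genes tested. For 43.1% of those genes the groups did not overlap. A count of 1 among so few markers is no result about a cell type. Summed FPKM of 5 mast cell and basophil markers was 37.8 to 46.2 in DMSO and 72.1 to 89.0 in haloperidol libraries, with 2 of 2 tested higher. Its members Fcer1a, Ms4a2 and Prss34 were below a mean of 1 FPKM over all libraries and so were not tested, and Fcer1a was at 0.109 to 0.432 FPKM in DMSO and 0.985 to 1.47 FPKM in haloperidol libraries. For 7 monocyte and macrophage markers the sum was 98.7 to 114 and 131 to 162, with 1 of 4 tested higher. That gene was Cd68, at 15.3 to 17.2 FPKM in DMSO and 40.6 to 48.2 FPKM in haloperidol libraries. Csf1r (log2 fold change 0.30), Cd14 (0.13) and Ly6c2 (-0.01) did not pass. For 7 B cell markers the sum was 36.4 to 38.3 and 23.1 to 25.8, with 3 of 3 tested lower, and for 4 megakaryocyte markers 75.0 to 82.5 and 99.0 to 111. Of these 4, 1 passed, Itga2b, at 17.5 to 19.7 FPKM in DMSO and 40.1 to 47.4 FPKM in haloperidol, while Pf4 (log2 fold change -0.07), Ppbp (-0.75, adjusted p = 0.0505) and Gp9 (0.28) did not. Neutrophil markers overlapped, at 163 to 276 and 168 to 298, and 0 of 7 tested passed. The sums for T and NK cells were 313 to 333 and 275 to 319 (0 of 2 tested passed), for endothelium 15.7 to 17.01 and 14.4 to 16.1 (1 of 2 lower), and for stroma 27.6 to 32.2 and 32.6 to 34.8 (1 of 3 higher). Most of the T and NK sum was Nkg7 (272 to 331 FPKM), and most of the B cell sum was Cd79b (21.4 to 33.4 FPKM). The part of these cells in the changes of Cebpd, Irf8 and Spi1 was not tested. Of 6 dendritic cell markers, 5 were below a mean of 1 FPKM over the 6 libraries, Flt3, which progenitors also express, being the exception.

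The genes most like Cebpd over the 6 libraries, by Pearson r of log2(FPKM + 1), were Zfp36l2, an RNA decay factor gene (0.998), the ribosomal protein gene Rpl27 (0.996) and the inhibitory receptor gene Ctla4 (0.995). Those most like Irf8 were Sh2d3c, a signalling adaptor gene (0.998), the mitochondrial carrier gene Slc25a25 (0.997) and Apold1 (0.997), of which Sh2d3c fell from 11.5 ± 0.460 to 4.87 ± 1.01 FPKM. Among 9497 candidate genes, 13 reached r above 0.99 with Cebpd and 19 with Irf8. Over 6 libraries in 2 groups r includes the difference between the groups, and it is given as a description only.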

How the data were processed

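The deposited file gives FPKM, computed by the authors, for 38926 genes in each of the 6 libraries. Per the labels' protocols, RNA was amplified with SMART-Seq v4 and libraries made with Nextera XT. Among the tools in the submitters' processing notes are HTSeq 0.6.1 and TopHat2 2.1.1, with build mm10. For annotation and counting options the entry is: not given in the sources used here.

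FPKM values were whole multiples of the worth of 1 read for 100.0% of the 20633 genes above 0 (tolerance 0.001 reads), and the recovered reads served for depth, simulation and 1 alternative. The scale of each library equalled its median-of-ratios size factor, the median over genes of its reads relative to their geometric mean over the libraries. Genes with a mean of at least 1 FPKM (11436) entered limma (version 3.58.1, R 4.3.3) as log2(FPKM + 1), with a trended prior, two-sided, no covariate, Benjamini-Hochberg adjustment and a threshold of 0.05. Means, SDs and shares are of FPKM, and fold changes on this scale understate those of low genes. In simulated data for this comparison (11436 genes, 100 of them changed at each fold) the test recovered 59% of 1.5-fold and 88% of 2-fold changes and called 11 unchanged genes. Far fewer genes were changed there than the 24.5% called in the data, and genes of like level were given the same spread. These shares therefore need not hold for the data. Chi-square per degree of freedom between libraries was at least 2.92, so no pair agreed within sampling noise. Promoter windows are the 250 bases before each start in RefSeq (GRCm38.p6), found for 5 of the 8 genes, and motifs were searched on both strands. Proteins were not used here.

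The members and lists were chosen with earlier results of these data known. Genes named are the 8 members, from each list the 3 with the smallest p and the one with the largest DMSO mean, the genes of the ratios, the gate genes Kit, Ly6a and Ptprc, and the 3 genes most like the member with the largest rise and fall; a gene that this rule names is not reported here. Alternatives were other pseudocounts, filters, scalings, priors, weights, a replicate block, voom on recovered reads and leaving out each library. Nab2, Id2, Runx2, Runx3, Cbfb, Csf3r, Cd34, Flt3, list genes under the filter and markers of other cells were named outside this rule, after their values were seen.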

Additional observations from a re-analysis of the deposited data

How the results depend on the processing

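The calls of Cebpd, Irf8 and Spi1 held under all 18 alternatives, with log2 fold changes of 0.94 to 1.13, -0.93 to -0.75 and -0.54 to -0.44 and a largest adjusted p of 0.00757. With recovered reads, 4 members were lower in place of 2, as Runx1 (-0.26) and Cebpg (-0.24) passed. Cebpg also passed with a mean of at least 5 FPKM (-0.23) and with common sum scaling (-0.25). It did not pass in the other 15 of the 18, among them each omission of 1 library (-0.28 to -0.16). Leaving out 1 library gave -0.35 to -0.14 for Runx1, -0.082 to 0.15 for Cebpa, -0.094 to 0.076 for Cebpb and -0.22 to 0.14 for the ratio of Cebpb to Cebpa, so the sign of these last 3, which passed no test, turned. It also turned with sample quality weights for Cebpa (-0.011) and Cebpb (-0.015), and for Cebpb with common sum scaling (-0.021) and quantile normalization (-0.044). Signs of other uncalled genes turned too, for Laptm5 with common sum scaling (-0.0070) and quantile normalization (-0.051), for Cst3 with upper quartile scaling (0.011), for Ly6a with quantile normalization (-0.0048) and for Ptprc with upper quartile scaling (0.022), quantile normalization (0.0034) and sample quality weights (0.020). Without 1 library they turned for Laptm5 (lowest -0.0025, highest 0.027), Mpo (-0.084, 0.13), Cst3 (-0.035, 0.0040), Ly6a (-0.040, 0.084) and Ptprc (-0.045, 0.046). The cause was not tested.

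Over all genes 2807 passed, and 1821 to 2148 without 1 library (fewest without DMSO replicate 2). Of these 1320 were higher, against 848 with no filter on low values and 815 to 957 without 1 library, the fewest without DMSO replicate 2 and 869 without haloperidol replicate 1. Upper quartile scaling turned the split of 1320 higher and 1487 lower into 1551 and 1327. With the replicate block 2552 passed and no member's call changed, though that of Gfi1 ended (adjusted p = 0.0635). The numbers were not taken as pairs, since the labels do not say that they pair samples. Deviations of same-numbered libraries from their group means correlated at 0.0095, 0.055 and 0.020, and not every library correlated best with its own number. With so few libraries, deviations from a group mean are not independent, so these values cannot decide on pairing. Of the counts for the lists, 257 of 288 stayed within 1.5 times. Depth limits Cebpa and Cebpe.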
